A study of Mus musculus with 12 samples.

Results

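The insulin-like growth factor (IGF) system is represented here by 10 genes: the ligand Igf1, the receptors Igf1r and Igf2r, and the binding proteins Igfbp1 to Igfbp7. They are 10 of the 18193 genes that the arrays name, and 27 probe sets carried 1 of these symbols and no other. The family was selected on the ratios of 2 of its members, Igfbp1 in infused wild-type kidneys and Igfbp2 in infused knockout kidneys. The ratios of all 10 genes in both infusion comparisons, and in the difference between them, are therefore given as a description with no test. Adjusted p-values are given for the comparisons between genotypes, and there for the 8 genes other than Igfbp1 and Igfbp2.

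RNA from snap-frozen whole kidneys of male mice, 2.5 months old and from an F1 cross of C57BL6 and 129/SvEv, was hybridised to Affymetrix Mouse Genome 430 2.0 arrays. The 4 groups were mice lacking the AT1A angiotensin receptor (AGTR1A-KO, here KO) infused with angiotensin II (KO ANG II), wild-type mice given the same infusion (WT ANG II), KO mice at baseline and wild-type mice at baseline (WT baseline). The infusion ran for 2 days at 1 ug/kg/min, all groups were on what the labels call NS diet, and each group had 3 mice with 1 array each. The labels do not restrict the knockout to a cell type, and the deposited files state no level of any gene. Each value is a ratio, in which the reading of 1 array was divided by the median reading of the same probe set across the 12 arrays. Levels can thus be compared between arrays but not between genes, and the presence of a tissue's defining markers cannot be read from them.

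IGF1 is made in liver and in many other tissues, under the control of growth hormone, and signals through the tyrosine kinase IGF1R to PI3K, AKT and mTOR. The binding proteins are secreted carriers that hold IGFs in the circulation and around cells and are opened by proteases. Igfbp1 is the carrier known for fast regulation: in liver, insulin lowers its transcription through an insulin response element in the promoter that is bound by FOXO factors. In the kidney, IGF1 is known to raise filtration and tubular growth.

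The promoters of Igfbp1 and Igfbp2 are shown because these genes carry the largest ratios of the family, and those of Igfbp3 and Igfbp5 because they are the neighbours: in GRCm38.p6 Igfbp3 follows Igfbp1 on chromosome 11, and Igfbp5 follows Igfbp2 on chromosome 1. The RefSeq table held windows of 300 bases, 250 before and 50 after each start, for all 10 genes (11 windows, of which Igfbp2 had 2 and the first is used). The 250 bases before the start are printed. Capitals mark the insulin response element in Igfbp1 (chr11:7197537-7197786, plus strand), and an E-box and 3 GC boxes in Igfbp2 (chr1:72824230-72824479, plus strand). The Igfbp3 stretch is chr11:7213924-7214173 and the Igfbp5 stretch chr1:72874866-72875115, both read on the minus strand.
Igfbp1: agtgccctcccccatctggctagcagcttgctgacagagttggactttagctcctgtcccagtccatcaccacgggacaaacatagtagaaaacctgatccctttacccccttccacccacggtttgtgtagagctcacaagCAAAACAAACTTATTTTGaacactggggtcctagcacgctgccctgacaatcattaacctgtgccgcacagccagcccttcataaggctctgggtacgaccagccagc
Igfbp2: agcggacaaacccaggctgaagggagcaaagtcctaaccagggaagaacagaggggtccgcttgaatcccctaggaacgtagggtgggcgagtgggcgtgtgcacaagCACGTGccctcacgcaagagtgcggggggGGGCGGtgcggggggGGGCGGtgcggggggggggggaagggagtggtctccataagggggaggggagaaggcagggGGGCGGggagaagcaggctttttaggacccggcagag
Igfbp3: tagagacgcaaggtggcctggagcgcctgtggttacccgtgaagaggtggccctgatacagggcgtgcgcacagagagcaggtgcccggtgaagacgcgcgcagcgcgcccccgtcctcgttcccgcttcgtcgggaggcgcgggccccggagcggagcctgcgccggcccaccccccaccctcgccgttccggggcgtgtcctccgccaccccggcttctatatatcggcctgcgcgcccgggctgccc
Igfbp5: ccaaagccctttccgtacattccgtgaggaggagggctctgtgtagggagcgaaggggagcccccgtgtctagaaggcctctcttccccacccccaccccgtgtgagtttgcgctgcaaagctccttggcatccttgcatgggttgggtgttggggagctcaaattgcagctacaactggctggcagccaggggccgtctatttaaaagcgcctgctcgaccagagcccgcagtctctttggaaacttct

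The letters searched, on both strands, were CAAAACAA and TTATTTTG for the first and second part of the insulin response element, GTAAACA for a FOXO site, TATAAA for a TATA box, GGGCGG for a GC box and CACGTG for an E-box. The element, with these parts 2 bases apart, began 108 bases before the Igfbp1 start. Its letters were taken from knowledge of this promoter, and 1 of the 32851 windows in the table held it (0.00304%), while 2.51% held the first part and 1.66% the second. No GTAAACA, found in 3.65% of windows, was present in the windows of the 10 genes. The Igfbp2 window held an E-box 142 bases before the start, as did 7.15% of windows, and GC boxes, as did 35.7%. Neither neighbour's window held any of these motifs, TATAAA (13.6% of windows) included. Such matches describe letters in the reference and not the binding of a factor.

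Igfbp1 was measured by 1 probe set, 1418918_at. Its ratios were 0.437, 0.265 and 0.365 in KO ANG II kidneys, 6.07, 5.01 and 2.55 in WT ANG II kidneys, 0.818, 0.581 and 0.71 in KO baseline kidneys and 1.32, 1.30 and 1.18 in WT baseline kidneys. The 4 groups did not overlap, and their order was WT ANG II, WT baseline, KO baseline and KO ANG II from high to low. Group means were 0.356 ± 0.086 in KO ANG II, 4.55 ± 1.81 in WT ANG II, 0.703 ± 0.119 in KO baseline and 1.27 ± 0.07 in WT baseline (SD, n = 3 each).

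On the log2 scale, Igfbp1 was higher with ANG II than at baseline in WT by 1.75 ± 0.26 (moderated standard error), which is 3.37-fold. In KO the same comparison gave -0.999 ± 0.256, so the infused kidneys had 2.00-fold less. The difference of the responses, KO minus WT, was -2.75 ± 0.36. Between genotypes, KO was lower than WT by 12.2-fold under ANG II (log2 change -3.61 ± 0.26) and by 1.82-fold at baseline (-0.86 ± 0.26). Since RNA of whole kidneys was measured, fewer cells of a type and less RNA per cell cannot be told apart in this or any later value.

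Igfbp2 was also measured by 1 probe set, 1454159_a_at, and had another pattern. Its ratios were 1.03, 1.06 and 0.597 in KO ANG II kidneys, 0.473, 0.912 and 0.798 in WT ANG II kidneys, 5.96, 5.14 and 2.95 in KO baseline kidneys and 1.27, 0.972 and 0.911 in WT baseline kidneys. The 3 KO baseline kidneys stood above all 9 others, and the other 3 groups overlapped. Group means were 0.895 ± 0.259 in KO ANG II, 0.728 ± 0.228 in WT ANG II, 4.68 ± 1.55 in KO baseline and 1.05 ± 0.19 in WT baseline (SD, n = 3 each).

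At baseline, KO was 4.32-fold above WT in Igfbp2 (log2 change 2.11 ± 0.29). Under ANG II the difference between genotypes was 0.31 ± 0.29, with overlapping groups. The infusion comparison gave -2.37 ± 0.29 in KO, or 5.18-fold less, and -0.57 ± 0.29 in WT, and the difference of the responses was -1.80 ± 0.41. Thus Igfbp1 differed most between genotypes in the infused kidneys and Igfbp2 in the untreated ones.

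**Figure D1:**
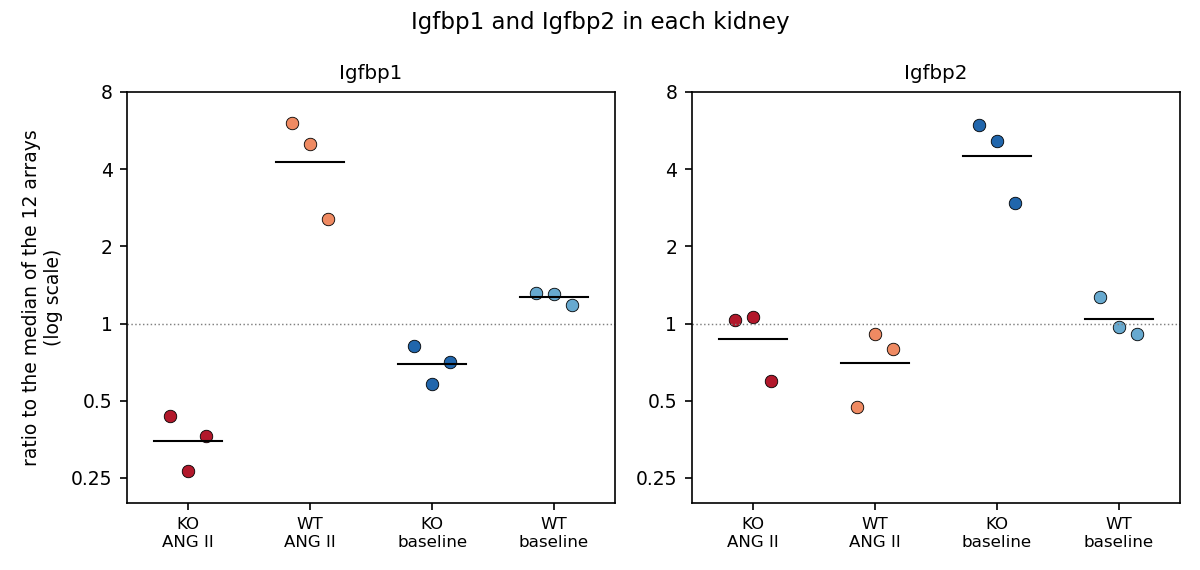
Ratio of each kidney to the median of the 12 arrays for Igfbp1 (left) and Igfbp2 (right) on a log axis, with 1 point per mouse and a line at the geometric mean of each group. Igfbp1 lies between 2.55 and 6.07 in WT ANG II kidneys and at or below 1.32 in all others, and Igfbp2 between 2.95 and 5.96 in KO baseline kidneys and at or below 1.27 in all others.

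Markers of some other cells moved with Igfbp2. Over 10 macrophage marker genes, the median log2 ratio of an array was -0.13 to 0.36 in KO ANG II kidneys, -0.80 to -0.50 in WT ANG II kidneys, 0.89 to 1.56 in KO baseline kidneys and -0.42 to 0.02 in WT baseline kidneys. At baseline 8 of the 10 rose in KO against WT and 0 fell (limma, adjusted p under 0.05), against 4.87% and 1.65% of all probe sets. In KO, 0 rose and 7 fell with ANG II, against 3.6% and 6.31% of all probe sets. Over 6 fibroblast markers the medians were -0.12 to 0.41, -0.93 to -0.39, 0.27 to 1.35 and -0.41 to 0.14 in the same order of groups. Of the 6, 2 rose in KO against WT at baseline and 0 fell, against the same 4.87% and 1.65%. Within KO baseline, the kidneys with Igfbp2 ratios of 5.96, 5.14 and 2.95 had macrophage medians of 1.56, 1.30 and 0.89.

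Vascular smooth muscle and mesangial markers were also highest there, with medians of -0.09 to 0.09 in KO ANG II, -0.003 to 0.017 in WT ANG II, 0.16 to 0.58 in KO baseline and -0.29 to -0.03 in WT baseline kidneys over 7 genes. Endothelial markers were likewise highest in KO baseline kidneys, with medians of 0.207 to 0.216 over 10 genes, against at most 0.156 in any other kidney. Of the 10, 1 rose in KO at baseline and 0 fell (limma, adjusted p under 0.05), against 4.87% and 1.65% of all probe sets. Podocyte medians over 5 genes were 0.07 to 0.44 in KO baseline kidneys and overlapped those of WT ANG II kidneys (-0.001 to 0.14). Distal convoluted tubule medians over 3 genes were lowest in KO baseline kidneys (-0.37 to -0.19), as were adrenal cortex medians over 5 genes (-0.19 to -0.14). Proximal tubule medians over 6 genes were -0.19 to -0.11 there, overlapping WT ANG II kidneys (-0.13 to -0.004). Thick ascending limb, collecting duct and adipocyte medians of KO baseline kidneys overlapped those of other groups. The part of these marker lists in the Igfbp2 values was not tested. Hepatocyte markers, relevant to carriers that liver secretes, had medians of 0.05 to 0.16 in KO ANG II, -0.08 to 0.07 in WT ANG II, -0.12 to -0.04 in KO baseline and -0.14 to 0.01 in WT baseline kidneys, over 5 of 7 listed genes. Of the 5, 1 fell in KO at baseline, 1 rose in KO under ANG II, and with ANG II in WT 1 rose and 1 fell (limma, adjusted p under 0.05). Their part in the Igfbp1 values was not tested.

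Across the series, Agtr1a, the deleted gene, had ratios of 0.917 to 1.05 in KO ANG II, 0.957 to 1.00 in WT ANG II, 0.923 to 1.04 in KO baseline and 1.36 to 1.40 in WT baseline kidneys. It fell in KO against WT at baseline (log2 change -0.49 ± 0.08, adjusted p = 0.00306, limma) and gave -0.003 ± 0.080 under ANG II (adjusted p = 0.98), so its ratios bear on the genotype labels at baseline only, and where in the gene the probes lie is not known here. The spread of log2 ratios within an array was 0.165 to 0.196 in KO ANG II, 0.268 to 0.342 in WT ANG II, 0.222 to 0.262 in KO baseline and 0.164 to 0.180 in WT baseline. On the control transcripts, the log2 ratio of 3' over 5' probe sets was 0.000 to 0.011 in KO ANG II, 0.036 to 0.067 in WT ANG II, -0.040 to 0.000 in KO baseline and -0.018 to -0.007 in WT baseline. The part of these differences in the family's values was not tested.

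Of all 45037 probe sets, 6.52% were called between genotypes at baseline at an adjusted p under 0.05, with 4.87% higher and 1.65% lower in KO. Of the family's 27, the fit called 1 higher (Igfbp2, a description here) and 1 lower (Igf1r). Under ANG II, 19.8% of all probe sets were called between genotypes, 11.7% higher and 8.17% lower in KO, and of the 27 none was called higher and 2 lower (Igfbp1, again a description, and Igf1r). The 25 probe sets of the 8 other genes gave 1 call in each comparison, a share of 4% in both, which is below the background in both. The family's median log2 change was 0.02 at baseline and -0.04 under ANG II, against -0.03 and -0.04 over all probe sets.

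In the WT response 24.1% of all probe sets were called, 10.9% higher and 13.3% lower with ANG II, and of the family 1 and 5. In the KO response 9.91% were called, 3.6% higher and 6.31% lower, and of the family 1 and 3. For the difference of the responses the background was 9.78%, with 5.7% higher and 4.08% lower in KO, and the family had 0 and 3. These comparisons chose the family, so nothing is read from its counts. With a renewed quantile normalization the share of calls that were higher moved to 70.9% under ANG II between genotypes, against 58.8%, and to 32.9% in the WT response, against 44.9%.

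**Figure D2:**
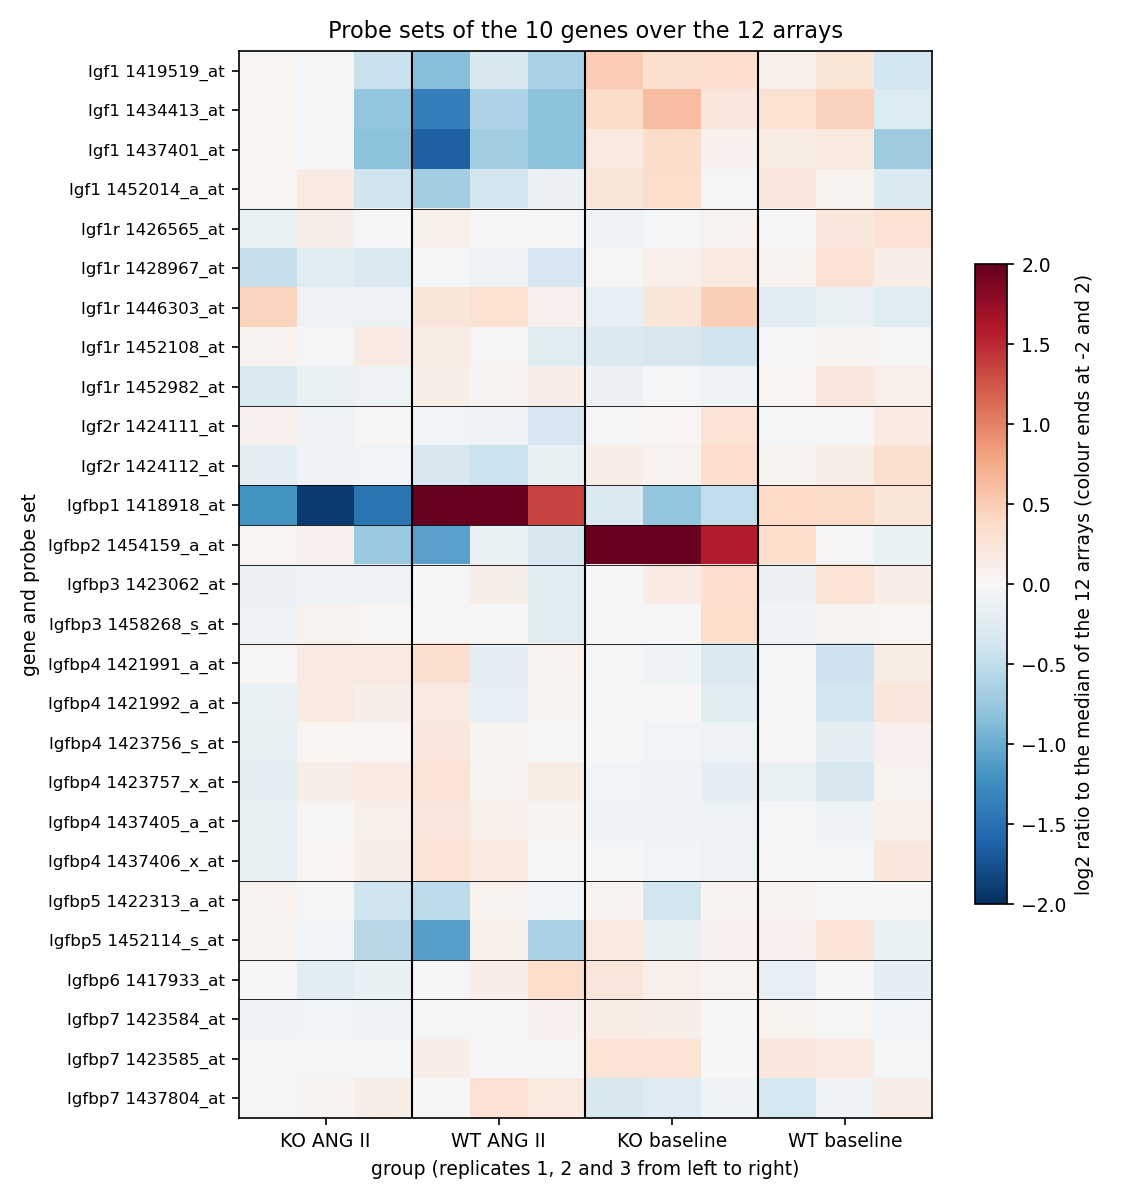
Log2 ratio to the median of the 12 arrays for the 27 probe sets of the 10 genes (rows) in each array (columns, 3 per group), on a colour scale that ends at -2 and 2. Igfbp1 and Igfbp2 hold the deepest colours, and the Igf1 rows are bluest in the WT ANG II columns. The other rows are pale, apart from Igfbp5 1452114_s_at in WT ANG II replicates 1 and 3 (ratios of 0.467 and 0.637).

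The remaining binding proteins stayed near a ratio of 1, apart from Igfbp5, which on 1452114_s_at read as low as 0.467 in a WT ANG II kidney. Igfbp3, the main serum carrier of IGF1, was read by 1423062_at at 0.921, 0.951 and 0.934 in KO ANG II, 0.999, 1.09 and 0.848 in WT ANG II, 1.00, 1.12 and 1.26 in KO baseline and 0.918, 1.20 and 1.10 in WT baseline kidneys. Its log2 change between genotypes was -0.06 ± 0.12 under ANG II (adjusted p = 0.76, limma) and 0.08 ± 0.12 at baseline (adjusted p = 0.74), with overlapping groups. The second Igfbp3 probe set gave 0.08 ± 0.11 under ANG II and 0.10 ± 0.11 at baseline. Igfbp3 thus showed no change of the size of its neighbour Igfbp1, whose log2 change between infused genotypes was -3.61 ± 0.26.

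Igfbp4, a carrier that the protease PAPPA cleaves, had 6 probe sets, and none passed the test between genotypes. Their log2 changes between genotypes lay between -0.15 and 0.06 under ANG II and between -0.12 and 0.03 at baseline. With ANG II they were 0.07 to 0.29 above baseline in WT and 0.03 to 0.26 above it in KO. All 6 thus pointed the same way in both infusion comparisons, with standard errors of 0.09 to 0.14.

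Igfbp5, a carrier that binds extracellular matrix and the neighbour of Igfbp2, varied more within groups. Its probe set 1452114_s_at read 1.04, 0.962 and 0.683 in KO ANG II, 0.467, 1.07 and 0.637 in WT ANG II, 1.15, 0.903 and 1.06 in KO baseline and 1.06, 1.20 and 0.917 in WT baseline kidneys. All groups overlapped, and the spread was widest among the WT ANG II kidneys. The log2 change between genotypes was 0.37 ± 0.24 under ANG II (adjusted p = 0.28, limma) and -0.03 ± 0.24 at baseline (adjusted p = 0.96), and without WT ANG II replicate 2 the value under ANG II was 0.69 (adjusted p = 0.03). The WT infusion comparison gave -0.62 ± 0.24, and -0.95 without the same array. The other Igfbp5 probe set, 1422313_a_at, gave 0.04 ± 0.16 between infused genotypes (adjusted p = 0.87, limma) and -0.10 ± 0.16 at baseline (0.75). In the WT infusion comparison it gave -0.19 ± 0.16. The high ratios of Igfbp2 in KO baseline kidneys had no counterpart in either Igfbp5 probe set, where those kidneys read 0.779 to 1.15.

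Igfbp6, which prefers IGF2 to IGF1, read 0.992, 0.867 and 0.899 in KO ANG II, 0.992, 1.10 and 1.27 in WT ANG II, 1.17, 1.07 and 1.05 in KO baseline and 0.897, 1.01 and 0.884 in WT baseline kidneys. KO kidneys lay above WT at baseline without overlap, and reached no higher than the lowest WT kidney under ANG II. The genotype difference was -0.28 ± 0.10 under ANG II (adjusted p = 0.066, limma) and 0.24 ± 0.10 at baseline (adjusted p = 0.18). Without WT ANG II replicate 1 the first passed the threshold (-0.37, adjusted p = 0.024). The infusion comparisons gave -0.25 ± 0.10 in KO and 0.26 ± 0.10 in WT.

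Igfbp7, a low-affinity carrier that endothelium secretes and whose protein is used as a urinary marker of kidney stress, had 3 probe sets. None passed the test between genotypes, with log2 changes of -0.12 to -0.08 under ANG II and -0.13 to 0.07 at baseline. In KO with ANG II, 1423584_at and 1423585_at were lower by -0.16 ± 0.07 and -0.22 ± 0.09 and 1437804_at was higher by 0.27 ± 0.12, each without overlap of the groups. The probe sets of Igfbp7 thus disagree in direction in that comparison.

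Igf1, the ligand, had 4 probe sets that ran together. Probe set 1434413_at read 1.02, 0.978 and 0.587 in KO ANG II, 0.389, 0.655 and 0.565 in WT ANG II, 1.30, 1.53 and 1.17 in KO baseline and 1.24, 1.38 and 0.831 in WT baseline kidneys. The WT ANG II kidneys were lowest as a group, and 1 KO ANG II kidney lay among them. All 4 probe sets were lower with ANG II in both genotypes: the log2 changes were -0.66, -0.53, -0.48 and -0.25 in KO, and -1.10, -0.60, -0.93 and -0.39 in WT, for 1434413_at, 1419519_at, 1437401_at and 1452014_a_at in that order.

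Between infused genotypes, Igf1 was above WT in KO by 0.68 ± 0.24 (1434413_at, adjusted p = 0.058, limma), 0.46 ± 0.17 (1419519_at, adjusted p = 0.071), 0.77 ± 0.28 (1437401_at, adjusted p = 0.066) and 0.33 ± 0.18 (1452014_a_at, adjusted p = 0.2). No probe set passed the threshold. Without KO ANG II replicate 3, the lowest KO kidney, the first 3 did, with log2 changes of 0.93, 0.61 and 1.05 (adjusted p = 0.018, 0.042 and 0.029). They also passed without WT baseline replicate 3 (adjusted p = 0.044, 0.043 and 0.041), and the first 2 without WT ANG II replicate 2 (0.84 and 0.61, adjusted p = 0.048 and 0.04). At baseline the differences were 0.24, 0.40, 0.33 and 0.19, with adjusted p from 0.19 to 0.59.

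The same macrophage and fibroblast markers moved with Igf1 between infused genotypes and with ANG II in WT. At baseline the macrophage markers differed more, with a median log2 change of 1.40 in KO against WT and 8 of 10 called higher. The Igf1 probe sets gave 0.19 to 0.40 there, and none passed. Under ANG II, 7 of the 10 macrophage markers rose in KO against WT and 0 fell, and of the 6 fibroblast markers 3 rose and 1 fell (limma, adjusted p under 0.05). Of all probe sets, 11.7% were higher and 8.17% lower there. In WT, 0 rose and 4 of the 10 macrophage markers fell with ANG II, against 10.9% and 13.3% of all probe sets. The part of these markers in the Igf1 values was not tested.

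**Figure D3:**
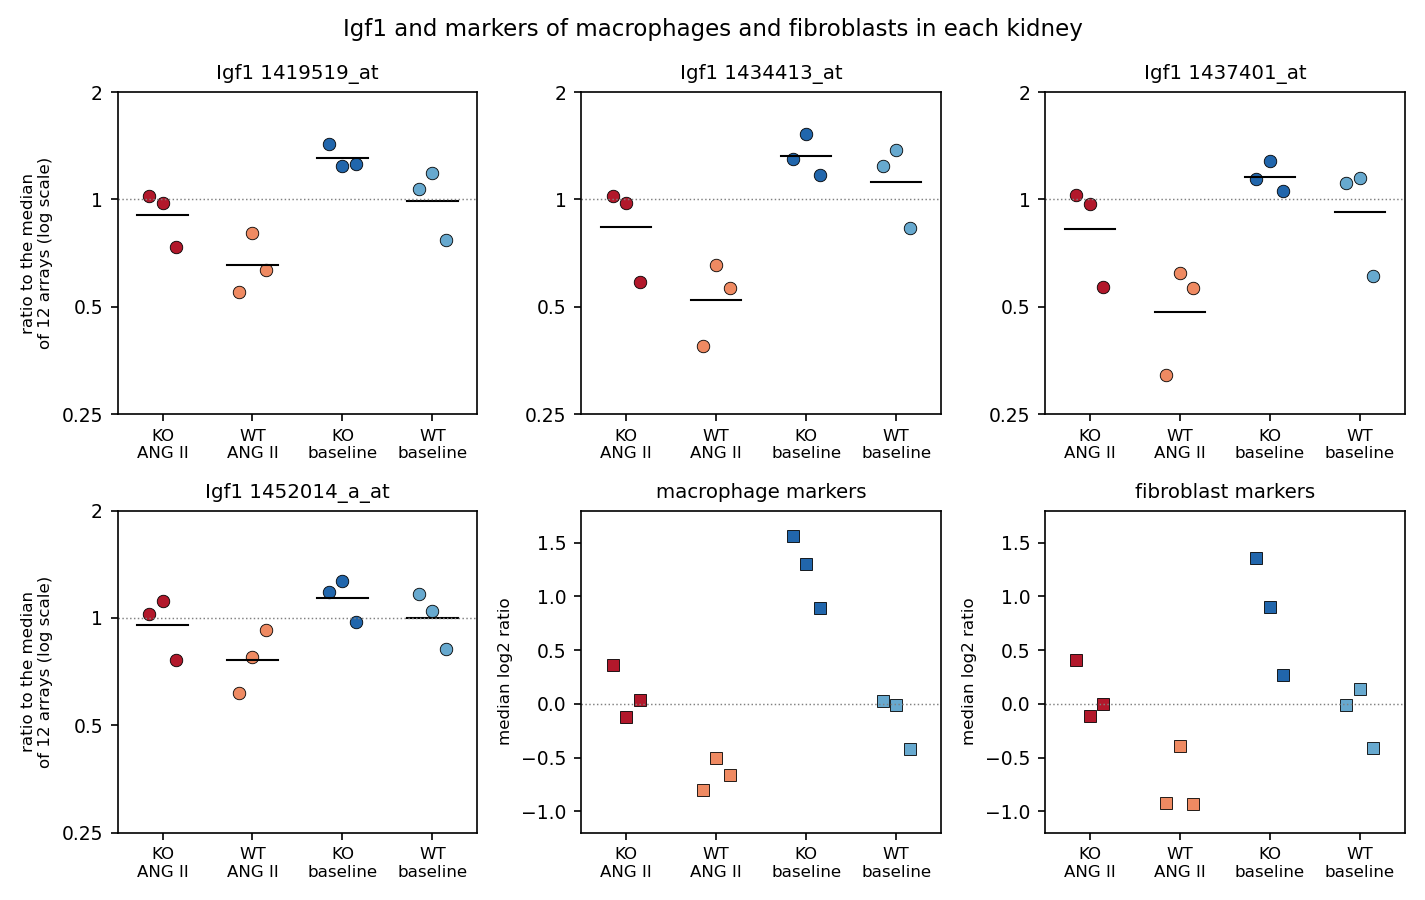
Ratio of each kidney to the median of the 12 arrays for the 4 Igf1 probe sets (circles, log axis, line at the geometric mean) and the median log2 ratio of each kidney over 10 macrophage and 6 fibroblast markers (squares). As a group, WT ANG II kidneys are lowest in Igf1 and in the marker medians (-0.80 to -0.50 and -0.93 to -0.39). KO baseline kidneys are the highest group in the marker medians. Igf1 in WT ANG II kidneys overlaps other groups. Fibroblast medians overlap between WT ANG II and WT baseline kidneys, and between KO baseline and KO ANG II kidneys.

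Igf1r, the receptor that signals for IGF1, had 5 probe sets that did not agree. At baseline 1452108_at read 0.819, 0.798 and 0.758 in KO kidneys, against 0.987, 1.04 and 1.01 in WT kidneys, without overlap. It fell in KO by a log2 change of -0.36 ± 0.10 (adjusted p = 0.045, limma). The call was at the edge of the threshold: it ended when any one of the 6 baseline arrays was left out (adjusted p from 0.076 to 0.13), and likewise for KO ANG II replicates 1, 2 and 3 and WT ANG II replicate 2 (0.051 to 0.056). Centring the arrays on their medians gave 0.056 and the filter on low spread 0.05. The other 4 probe sets did not pass at baseline, with log2 changes from -0.20 to 0.38.

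Under ANG II a different Igf1r probe set, 1452982_at, was called. It read 0.822, 0.914 and 0.93 in KO kidneys, against 1.09, 1.04 and 1.10 in WT kidneys. The log2 change, KO minus WT, was -0.27 ± 0.08 (adjusted p = 0.028, limma). With KO ANG II replicate 1 left out the adjusted p was 0.12, and with WT ANG II replicate 3 left out 0.075. Quantile normalization gave 0.065, array weights 0.055 and a fit to the infused groups alone 0.086. The other 4 gave log2 changes of -0.16 to 0.10 and did not pass. In KO with ANG II, 1428967_at was lower by -0.43 ± 0.10 and 1452108_at higher by 0.41 ± 0.10, both without overlap, so no single direction can be given for Igf1r in that comparison.

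Igf2r, the receptor that takes IGF2 to lysosomes for breakdown and also carries mannose 6-phosphate enzymes, had 2 probe sets. Probe set 1424112_at read 0.886, 0.957 and 0.962 in KO ANG II, 0.805, 0.746 and 0.905 in WT ANG II, 1.10, 1.05 and 1.27 in KO baseline and 1.04, 1.08 and 1.25 in WT baseline kidneys. Infused kidneys lay below baseline kidneys in both genotypes, by log2 changes of -0.28 ± 0.10 in KO and -0.45 ± 0.10 in WT. The second probe set gave -0.10 ± 0.11 and -0.21 ± 0.11. Genotypes did not differ past the threshold: the 2 probe sets gave 0.20 and 0.15 under ANG II (adjusted p = 0.19 and 0.31, limma) and 0.02 and 0.04 at baseline.

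**Figure D4:**
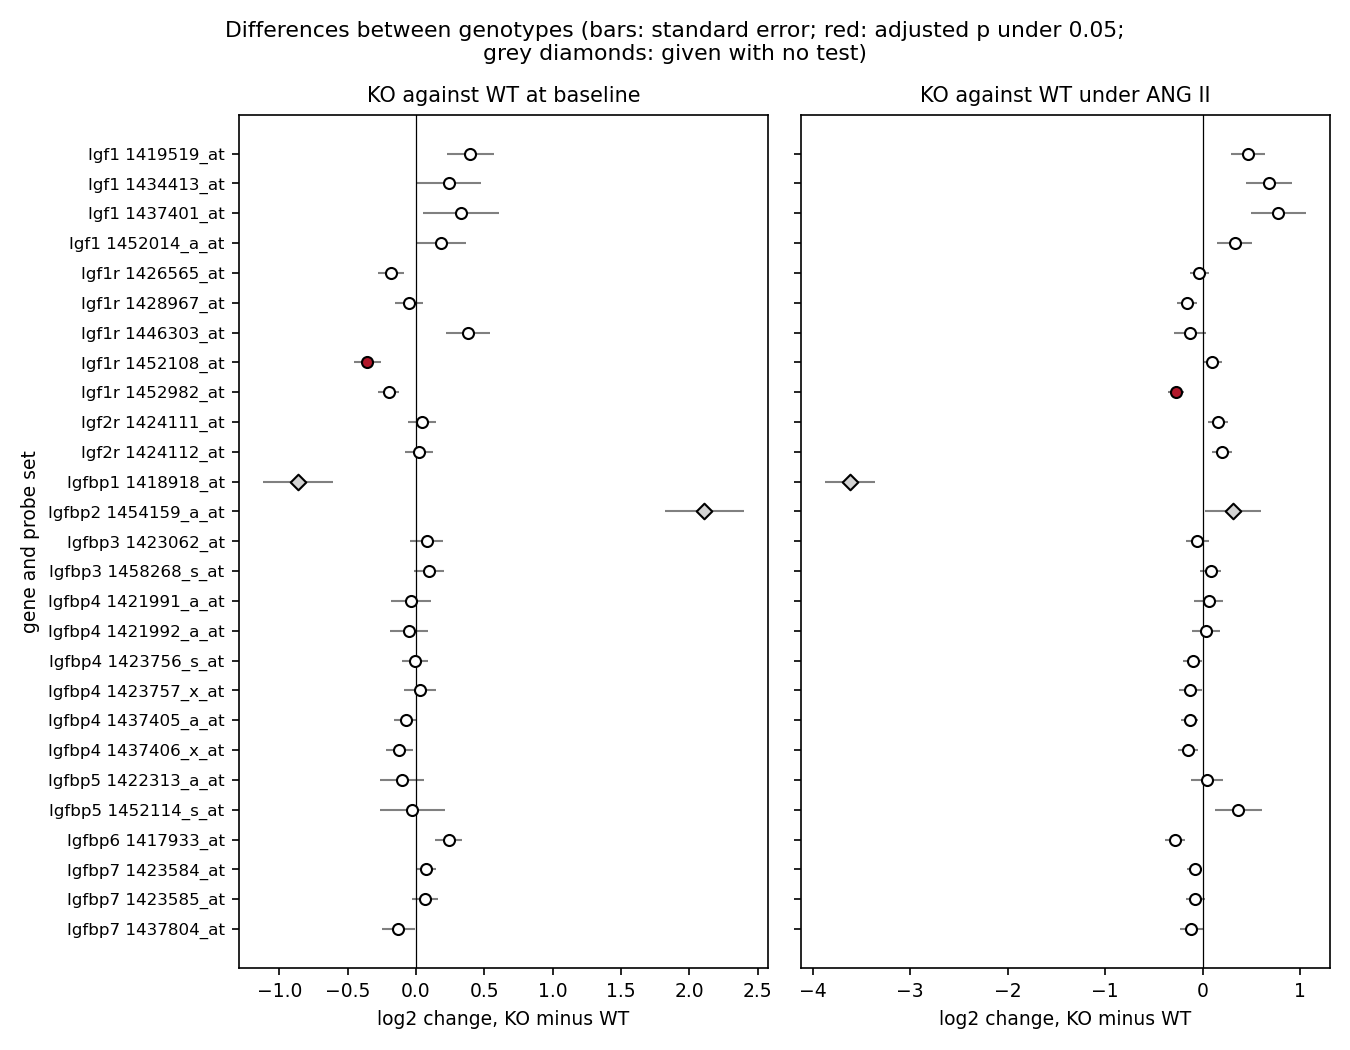
Log2 change, KO minus WT, of the 27 probe sets at baseline (left) and under ANG II (right), with bars of 1 moderated standard error. Red points passed an adjusted p of 0.05 and are 1 Igf1r probe set in each panel, white points did not pass, and grey diamonds mark Igfbp1 and Igfbp2, given with no test.

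Genes that act on the family without belonging to it were taken from 3 lists and tested in all 5 comparisons. The first list holds carriers, proteases and modulators of IGFs, with 11 of 12 listed genes on 27 probe sets. Under ANG II between genotypes 1 of the 27 was called higher and 5 lower in KO (22.2%, against 19.8% of all probe sets), and at baseline 1 higher (3.7%, against 6.52%). With ANG II, 1 was called higher and 2 lower in KO (11.1%, against 9.91%), and 9 higher and 2 lower in WT (40.7%, against 24.1%). For the difference of the responses, 2 were called lower in KO (7.41%, against 9.78%). Apart from the WT response, these shares lay near or below the background. The WT share counts some genes more than once: all 3 Stc2 probe sets were among its higher calls, and both lower calls were of Htra1. The list's median log2 change in WT was 0.22, against 0.05 over all probe sets.

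Pappa2, the protease that frees IGF1 from IGFBP3 and IGFBP5, read 0.80, 0.71 and 0.97 in KO ANG II, 0.993, 1.09 and 1.01 in WT ANG II, 1.94, 1.20 and 1.31 in KO baseline and 0.719, 0.932 and 1.01 in WT baseline kidneys. As with Igfbp2, the KO baseline kidneys were the high group. Pappa2 fell with ANG II in KO by a log2 change of -0.82 ± 0.17 (adjusted p = 0.0092, limma), its difference of the responses was -1.05 ± 0.24 (adjusted p = 0.015), and it rose in KO at baseline by 0.73 ± 0.17 (adjusted p = 0.023). The baseline call ended without KO baseline replicate 1 (adjusted p = 0.074), WT baseline replicate 1 (0.079) or WT baseline replicate 2 (0.053).

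Between infused genotypes, Stc2, an inhibitor of PAPPA, was lower in KO than in WT on 2 of 3 probe sets. The log2 changes were -0.43 ± 0.10 and -0.49 ± 0.13 (adjusted p = 0.013 and 0.021, limma), and the third gave -0.29 ± 0.11 (0.07). The first call ended without KO ANG II replicate 3 or WT ANG II replicate 3 (adjusted p = 0.058 and 0.052) and the second without KO ANG II replicate 2 or WT ANG II replicate 2 (0.07 and 0.076). Igfals, the acid-labile subunit of the serum IGF complex, was lower in infused KO than in infused WT kidneys by -0.37 ± 0.11 (adjusted p = 0.035, limma). The matrix protease gene Mmp7 was likewise lower by -0.30 ± 0.10 (adjusted p = 0.041). Htra1, a serine protease that cleaves binding proteins, was higher there by 0.29 ± 0.09 on 1 of 2 probe sets (adjusted p = 0.034), the other giving 0.26 ± 0.09 (0.06). Each of these 3 calls ended without single arrays. For Igfals these were all infused arrays but WT ANG II replicate 2 (0.057 to 0.1), for Htra1 all but KO ANG II replicate 2 (0.054 to 0.13), and for Mmp7 all but KO ANG II replicate 2 and WT ANG II replicate 1 (0.11 to 0.14), with the KO baseline arrays and WT baseline replicate 3 besides (0.051 to 0.054). A renewed quantile normalization ended all 5 of these calls between infused genotypes (0.053 to 0.26). With ANG II against baseline, Igfals was higher in KO by 0.47 ± 0.11 and in WT by 0.50 ± 0.11. Mmp7 gave 0.11 in KO and 0.42 in WT, and the called Htra1 probe set gave -0.08 and -0.41.

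The second list holds receptors and adapters of insulin and growth hormone, 17 of 17 genes on 37 probe sets. Under ANG II, 2 were called higher and 5 lower in KO (18.9%, against 19.8% of all probe sets), and at baseline 1 higher (2.7%, against 6.52%). With ANG II, 1 was called lower in KO (2.7%, against 9.91%), and 6 higher and 3 lower in WT (24.3%, against 24.1%). For the difference of the responses, 3 were called lower in KO (8.11%, against 9.78%). These shares lay near or below those of all probe sets. Insr, the insulin receptor, read 0.979, 0.823 and 0.828 in KO ANG II on 1434446_at, 1.46, 1.20 and 1.46 in WT ANG II, 0.968, 0.968 and 1.12 in KO baseline and 1.01, 0.99 and 1.10 in WT baseline kidneys. Under ANG II it was lower in KO than in WT by -0.64 ± 0.10 (adjusted p = 0.0011, limma). The other 2 Insr probe sets gave 0.04 and -0.20 and did not pass.

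Socs2, a growth hormone target that dampens growth hormone signalling, read 0.819, 1.16 and 1.02 in KO ANG II on 1442586_at, 1.64, 1.30 and 1.89 in WT ANG II, 1.01, 0.835 and 0.993 in KO baseline and 0.908, 0.886 and 0.781 in WT baseline kidneys. The WT ANG II kidneys stood above all others. On this probe set Socs2 fell in KO against WT under ANG II by -0.69 ± 0.15 (adjusted p = 0.0057, limma) and rose with ANG II in WT by 0.89 ± 0.15 (adjusted p = 0.001). Between infused genotypes, 1446085_at also fell, by -0.87 ± 0.24 (adjusted p = 0.022), with overlapping groups. That call ended without KO ANG II replicate 1 or 3 or WT ANG II replicate 1 or 3 (0.054 to 0.087), with array weights (0.068) and with only the infused groups (0.065). The other 4 of the 6 Socs2 probe sets did not pass there: 1418507_s_at, 1438470_at and 1449109_at gave -0.69, -0.33 and -0.64 (adjusted p = 0.14, 0.16 and 0.15), and 1441476_at 0.05 (0.75). Without WT ANG II replicate 2, the first 3 of these passed (-1.02, -0.51 and -0.97, adjusted p = 0.049, 0.041 and 0.044).

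With ANG II in WT, 3 further Socs2 probe sets rose, 1438470_at by 0.76 ± 0.16, 1446085_at by 0.91 ± 0.24 and 1449109_at by 1.11 ± 0.31 (adjusted p = 0.0052, 0.015 and 0.019, limma). The second of these calls ended without WT ANG II replicate 3 or WT baseline replicate 1 (0.064 and 0.051) and with array weights (0.054), and the third without WT ANG II replicates 1 or 3 or WT baseline replicate 2 (0.057 to 0.08) and with quantile normalization (0.055). Probe set 1418507_s_at gave 0.73 (adjusted p = 0.11), which passed with a replicate block among the WT arrays (0.0075), without WT ANG II replicate 2 (0.036) or without WT baseline replicate 1 (0.032), and 1441476_at gave 0.07.

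Stat5a, a transcription factor of the same pathway, went the other way on 1450259_a_at, with 0.49 ± 0.11 between infused genotypes (adjusted p = 0.0068, limma) and -0.57 ± 0.11 in the WT response (adjusted p = 0.0025), while its second probe set gave 0.07 and -0.05 and did not pass. The 3 probe sets of Ghr, the growth hormone receptor, gave log2 changes of 0.03 to 0.18 under ANG II between genotypes and did not pass in any comparison.

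Irs2, an adapter of the insulin and IGF1 receptors, was lower in KO than in WT under ANG II by -0.76 ± 0.22 (adjusted p = 0.028, limma). The call ended without KO ANG II replicate 1, KO ANG II replicate 3 or WT ANG II replicate 1 (adjusted p = 0.10, 0.084 and 0.086), with quantile normalization (0.071) and with array weights (0.058). At baseline the only call of this list was Socs3, a feedback inhibitor of cytokine signalling, which read 3.17, 2.71 and 1.501 in KO and 0.812, 0.943 and 0.585 in WT kidneys on 1455899_x_at. It rose by 1.62 ± 0.35 (adjusted p = 0.016), and the call ended without KO baseline replicate 1 (0.06), KO baseline replicate 2 (0.068) or WT baseline replicate 3 (0.081). The other Socs3 probe sets gave 0.41 and 1.33 at baseline (adjusted p = 0.18 and 0.057).

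The third list holds PI3K, AKT, FOXO and mTOR signalling, 19 of 22 genes on 56 probe sets. Under ANG II, 3 were called higher and 6 lower in KO (16.1%, against 19.8% of all probe sets), and at baseline 3 higher (5.36%, against 6.52%). With ANG II, 1 was called higher and 11 lower in KO (21.4%, against 9.91%), and 10 higher and 3 lower in WT (23.2%, against 24.1%). Among the lower calls in KO were all probe sets of Pik3r1: -0.86 on 1425514_at, -0.37 on 1425515_at, -0.54 on 1438682_at and -0.42 on 1451737_at. Foxo3 gave -0.60 on 1434831_a_at and -0.31 on 1434832_at, so the share counts some genes more than once. The calls on 1425515_at, 1451737_at and 1434832_at ended under 6 of 19, 5 of 19 and 6 of 21 alternatives. For the difference of the responses, 2 were called higher and 7 lower in KO (16.1%, against 9.78%). The list's share was above the background in that comparison and in the KO response, and below it in the other 3 comparisons. Foxo3, a FOXO factor that AKT holds out of the nucleus, read 0.792, 0.832 and 0.896 in KO ANG II on 1434832_at, 1.37, 1.18 and 1.22 in WT ANG II, 1.04, 0.992 and 1.08 in KO baseline and 0.999, 0.957 and 1.00 in WT baseline kidneys. The KO ANG II kidneys stood below all others, as they did for Igfbp1.

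Under ANG II, Foxo3 was lower in KO than in WT on 2 of 3 probe sets, by -0.71 ± 0.11 on 1434831_a_at and -0.58 ± 0.08 on 1434832_at (adjusted p = 0.00091 and 0.00045, limma). Its differences of the responses were -0.76 ± 0.16 and -0.65 ± 0.12 (adjusted p = 0.0094 and 0.0043). The third, 1450236_at, gave -0.22 ± 0.12 (adjusted p = 0.21) with overlapping groups, and -0.29 ± 0.17 for the difference of the responses (0.33). Mtor, the kinase of the mTOR complexes, was higher in KO than in WT under ANG II by 0.68 ± 0.08 and 0.46 ± 0.08 on 2 of 3 probe sets (adjusted p = 9.2e-05 and 0.0024, limma). The third, 1446185_at, gave 0.22 ± 0.21 with overlapping groups (0.49). With ANG II against baseline, the first 2 gave -0.43 ± 0.08 and -0.33 ± 0.08 in WT, and 0.10 ± 0.08 and 0.16 ± 0.08 in KO. Mtor probe set 1417592_at read 1.19, 1.15 and 1.10 in KO ANG II kidneys, against 0.742, 0.671 and 0.74 in WT ANG II kidneys. Eif4ebp1, a repressor of translation that mTOR inactivates, was lower in infused KO than in infused WT kidneys on 2 of 3 probe sets. The log2 changes were -0.47 ± 0.09 and -0.62 ± 0.10 (adjusted p = 0.003 and 0.0012, limma), and the third gave -0.13 ± 0.09 (0.29). With ANG II against baseline, the first 2 gave 0.30 ± 0.09 and 0.33 ± 0.10 in WT, and -0.12 ± 0.09 and -0.04 ± 0.10 in KO. Gsk3b, a kinase that AKT inhibits, was higher in KO than in WT under ANG II by 0.42 ± 0.13 on 1 of 6 probe sets (adjusted p = 0.033, limma). That call ended without KO ANG II replicate 1 or 3 or WT ANG II replicate 2 or 3 (0.057 to 0.13). The mean over the Gsk3b probe sets was 0.05 (adjusted p = 0.57).

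At baseline the calls of this list were in regulatory subunits of PI3K. Pik3r1 rose in KO by 0.50 ± 0.10 on 1438682_at (adjusted p = 0.0083, limma) and by 0.46 ± 0.10 on 1425515_at (adjusted p = 0.012), and Pik3r3 by 0.44 ± 0.11 (adjusted p = 0.025). The other Pik3r1 probe sets gave 0.39 and 0.25 (adjusted p = 0.057 and 0.22). Under ANG II, 1438682_at was lower in KO than in WT by -0.31 ± 0.10 (adjusted p = 0.038, limma). That call ended without single arrays, all infused ones but KO ANG II replicate 1 among them (0.06 to 0.16), with quantile normalization (0.073) and with only the infused groups (0.11). The other 3 gave -0.29 to -0.12 and did not pass. The second Pik3r1 call at baseline ended without KO baseline replicate 2 (adjusted p = 0.054) or WT baseline replicate 3 (0.064). The Pik3r3 call ended without KO baseline replicate 1 or 2 or WT baseline replicate 2 or 3 (0.055 to 0.11), and with quantile normalization (0.052). Pik3r1 lies on chromosome 13, as does the deleted Agtr1a, and none of the 10 family genes does.

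**Figure D5:**
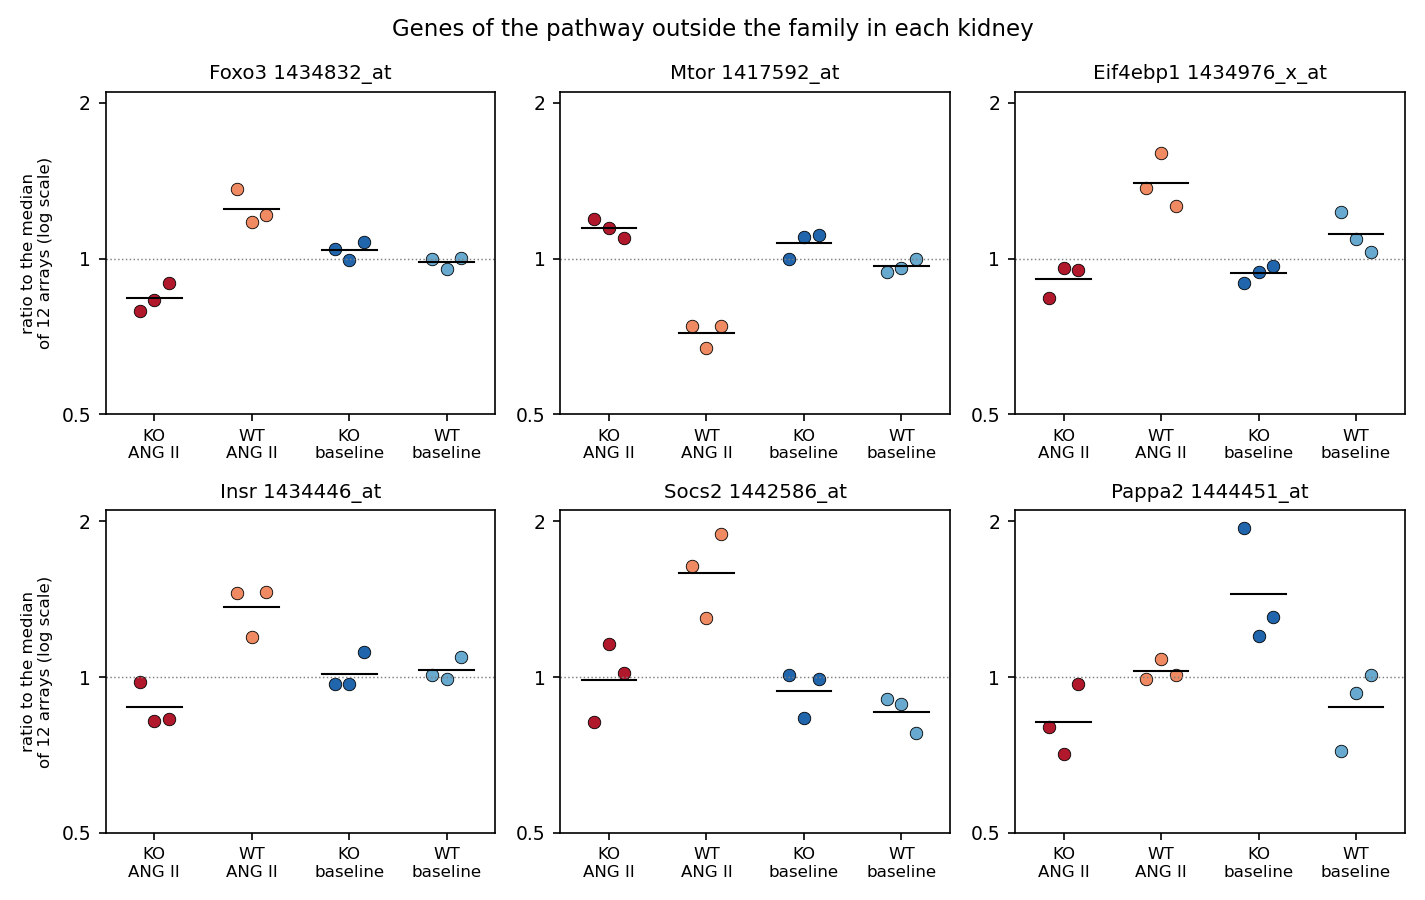
Ratio of each kidney to the median of the 12 arrays for 6 genes outside the family, on a log axis, with 1 point per mouse and a line at the geometric mean. On the probe sets shown, Foxo3, Eif4ebp1, Insr and Socs2 are lower and Mtor is higher in KO ANG II than in WT ANG II kidneys, each without overlap. Pappa2 is highest in KO baseline kidneys (1.20 to 1.94). Where a gene had several probe sets, the one with the lowest adjusted p between infused genotypes (limma) is shown. Foxo3, Eif4ebp1, Insr, Socs2 and Mtor each also had a probe set that did not pass there, with overlapping groups.

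The genes whose log2 ratios ran most like Igfbp1 over the 12 arrays were Fgfbp1 (Pearson r = 0.94), Erbb3 (0.938), Pde4d (0.932), Ypel3 (0.932) and Dhrs3 (0.927), each by 1 probe set. Their changes were smaller: between infused genotypes Fgfbp1 gave a log2 change of -1.15 and Dhrs3 -0.86, and Igfbp1 -3.61. Those most like Igfbp2 were Tgfb1 (0.975), Icosl (0.968), Fyn (0.968), Itpripl2 (0.967) and Rhob (0.966), of which Rhob had the largest change between genotypes at baseline, 1.04. These correlations describe 12 arrays in 4 groups and were picked as the highest over all genes.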

How the data were processed

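Kidney RNA of 12 mice was measured on 12 arrays. Per the labels, the authors processed the arrays with RMA (background correction, quantile normalization and probe summary). Each deposited value is a ratio: the reading of 1 array over the median reading of that probe set in all 12, as read from the values, since the median lay within 0.002 of 1 for 45099 of 45101 probe sets. Ratios keep no intensity, so dim probe sets could not be filtered and depth cannot be given; the number of arrays limits the precision. No 2 arrays held identical values.

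Ratios were put on the log2 scale, 64 control probe sets were left out and 45037 were tested. limma 3.58.1 (R 4.3.3) estimated 4 group means jointly from the 12 arrays (8 residual and 5.83 prior degrees of freedom), two-sided, with Benjamini-Hochberg adjustment over all probe sets within each of 5 comparisons. A probe set was called at an adjusted p under 0.05. P-values rest on the spread between mice within groups, estimated jointly over the 4 groups and moderated across probe sets, and not on the spread of the compared groups alone. On simulated data of 45037 probe sets, 50 were changed per size and direction in each genotype comparison. Of each 50, 48 to 50 changed by 1 on the log2 scale were called, and 20 to 24 changed by 0.5. Most of the smaller size were thus missed there. Recovery with as many changed probe sets as were called in the data was not tested. Probe sets with 1 gene symbol in the array annotation were used, and 1 probe set of the family with several symbols was left out. Promoters are from RefSeq, GRCm38.p6.

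The 10 members and all lists were chosen with earlier results of these data known. Partner genes were named by a rule: the 4 largest calls of each list in each genotype comparison, with Insr, Irs2, Ghr and Pappa2 besides. For a named partner with several probe sets, those that did not pass are given in the comparison described. Alternatives were a variance trend, only the groups compared, quantile normalization, centring on a common median, array weights, a block for the replicate number, a filter that leaves out the 25% of probe sets with the lowest spread, the plainest probe set of each gene alone, probe sets averaged within genes, and each array left out. Same-numbered arrays deviated together in 1 comparison: for WT ANG II with WT baseline all 3 pairs correlated over 0.1 (0.13 to 0.19), from the data and not the labels, and a block among the WT arrays alone was added after the data were seen.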

Additional observations from a re-analysis of the deposited data

Results flagged for a closer look

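The difference of the responses to ANG II, KO minus WT on the log2 scale, was -2.752 for Igfbp1, -1.804 for Igfbp2 and -0.5192 for Igfbp6. These 3 of the 27 probe sets (11.1%) are listed because the fit called them for this difference, as it did 9.78% of all probe sets. The infusion comparisons chose the family, so the values are a description and nothing is read from the count. The Igfbp6 call ended under 11 of 20 alternatives.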

How the results depend on the processing

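Under the alternatives run, no call and no change of Igfbp1 or Igfbp2 reversed its direction. The log2 change of Igfbp1 between infused genotypes stayed between -3.99 (without WT ANG II replicate 3) and -3.36 (without WT ANG II replicate 1). That of Igfbp2 between genotypes at baseline stayed between 1.47 (quantile normalization) and 2.41 (without KO baseline replicate 3). Calls among the 27 probe sets were few, so their counts moved easily. For KO against WT at baseline the count was 2, and 3 with only the groups compared, quantile normalization or array weights, where Igfbp1 was added, and 1 with common centring of the arrays, a single probe set per gene or probe sets averaged within genes. For KO against WT under ANG II it was 2, and 1 with only the groups compared, quantile normalization, array weights or 1 probe set per gene, and 4 with the filter on low spread. For ANG II against baseline in WT it was 6, and 7 with the filter and 3 with quantile normalization or averaged probe sets and 2 with 1 probe set per gene. For ANG II against baseline in KO it was 4, and 6 with array weights, 5 with only the groups compared or the filter, 3 with quantile normalization and 2 with 1 probe set per gene or the mean. Leaving out arrays in turn gave 1 to 3, 1 to 5, 3 to 7 and 1 to 5 in these comparisons, and for the difference of the responses (KO minus WT), where it was 3, 2 to 4 under these and the other alternatives.

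Over 18 same-number pairs of arrays, deviations from the group means correlated at -0.16 to 0.22, with 7 over 0.1. All 3 pairs of WT ANG II with WT baseline were among these, and each of the 6 WT arrays matched best its own number in the other WT group, while in the other 3 comparisons of 2 groups at most 1 of 3 pairs was. With a replicate block among the WT arrays, chosen after seeing the data, the WT response had 7 calls in the family and 12332 in place of 10876 over all probe sets. With the replicate block over all arrays, calls under ANG II between genotypes were 5, since 3 Igf1 probe sets passed (adjusted p = 0.042, 0.027 and 0.046, limma), and the baseline Igf1r call ended (0.055) while Igfbp1 was added there; the counts in the other comparisons were 2, 6, 6 and 2. Over all 45037 probe sets, quantile normalization gave 4063 calls in place of 8934 under ANG II between genotypes, 5704 in place of 10876 in the WT response and 2867 in place of 4404 for the difference of the responses. A fit to the infused groups alone gave 4991 calls under ANG II between genotypes, in place of 8934. The causes were not tested. With 3 mice per group, differences near 0.3 on the log2 scale are near the limit of what passed, and signal over background is unknown.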
